A study of Mus musculus with 4 samples.

Results

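The genes of the cytosolic ribosomal proteins were followed in RNA-seq libraries of plated rib chondrocytes, the cells that make cartilage matrix. Members were the genes whose symbol is Rpl, Rps or Rplp followed by a digit, with Rpsa and Fau, leaving out the ribosomal S6 kinases and symbols that carry the pseudogene mark -ps. This name rule found 87 of the 17575 genes listed in the 4 libraries. They comprised 46 core proteins of the large subunit, 32 core proteins of the small subunit and 9 paralogs or other matches. All 78 core names that were looked for were present.

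Of the 4 libraries, 2 came from wild type and 2 from knockout mice, all 10 days old and of strain C57/Bl6. Knockout mice carried the transgene Col2Cre(Tg), a Cre recombinase driven by Col2, together with the floxed alleles Kdm6a(fl/fl) and Kdm6b(fl/fl). Both targeted genes encode demethylases of histone H3. Col2-driven Cre acts in cartilage cells, so other cells of the preparation would keep both genes. The labels do not say whether the wild type mice carried Cre or floxed alleles. Rib cartilage was digested with collagenase, and the released cells were filtered and plated before RNA was taken. The submitters describe triplicates, while 2 libraries of each group were used here. Nothing in the labels ties the libraries of a group to separate animals or cultures, so the p-values below measure the spread between these libraries, which may be technical.

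Each ribosome joins a small subunit, which reads the messenger RNA, to a large subunit, which forms peptide bonds. Nearly every subunit protein is needed in equal copy number, and cells coordinate these proteins largely through translation of messages that begin with an oligopyrimidine tract, under control of the kinase complex mTORC1. Chondrocytes secrete much matrix protein, and partial loss of single ribosomal proteins is known to disturb skeletal and blood development. Mammalian ribosomal protein genes have left many processed pseudogenes, which are reverse-transcribed copies without introns, and reads from a gene and a near-identical copy cannot always be assigned.

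The sequences of a few pairs show how far reads can separate a member from its copy. Each line below is a stretch of coding sequence, 5′ to 3′ on the transcript strand, from GENCODE M21, with the bases that differ between gene and copy in capitals. Rpl37 and the retrogene Rpl37rt are shown at coding positions 190 to 249 of Rpl37, since they differ at only 1 of 294 aligned coding bases.
Rpl37: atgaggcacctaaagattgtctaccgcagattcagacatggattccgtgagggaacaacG
Rpl37rt: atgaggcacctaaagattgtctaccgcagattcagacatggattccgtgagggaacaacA
Rpl31 and the listed pseudogene Rpl31-ps12 are shown at positions 52 to 111 of Rpl31, because this pair divided its counts most evenly among the near-identical pairs.
Rpl31: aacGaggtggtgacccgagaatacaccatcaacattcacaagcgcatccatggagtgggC
Rpl31-ps12: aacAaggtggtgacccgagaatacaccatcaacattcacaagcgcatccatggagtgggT
Rpl36a and its expressed paralog Rpl36al are shown at positions 115 to 174 of Rpl36a, as a pair with more differences.
Rpl36a: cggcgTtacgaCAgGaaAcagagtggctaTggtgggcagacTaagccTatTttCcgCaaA
Rpl36al: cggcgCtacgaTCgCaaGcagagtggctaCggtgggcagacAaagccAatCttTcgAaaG
The longest run of identical bases between the transcripts was 256 for Rpl37 and Rpl37rt, 240 for Rpl31 and Rpl31-ps12, and 24 for Rpl36a and Rpl36al.

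Library totals were 31616619 and 31178248 estimated counts for wild type and 32332044 and 32230980 for knockout. Kdm6b measured 19.6 and 17.2 FPKM (a level scaled to transcript length and to library size) in wild type and 7.76 and 6.96 in knockout, and Kdm6a measured 9.83 and 10.4 against 5.41 and 5.94. Both were lower in the libraries labelled knockout (edgeR adjusted p = 0.00174 and 0.00489), though neither passed without wild type replicate 1 (0.0936 and 0.101) or without wild type replicate 2 (0.158 and 0.181). Among 13773 tested genes, 9.25% were called changed at an adjusted p below 0.05, 3.62% higher and 5.63% lower in knockout. Of 8 chondrocyte markers, 3 were called higher and 0 lower. Their summed level was 7721 and 7248 FPKM in wild type and 10691 and 10308 in knockout. Col2a1 alone gave 5220 and 4767 FPKM of it in wild type and 7547 and 7426 in knockout. Log2 fold changes lay above 0 in 7 of the 8, and Sox9 (-0.19) and Col11a2 (0.032) had overlapping groups. The summed level of 6 endothelial markers was 38.1 and 33.9 against 28.6 and 24.5, that of 8 erythroid markers 45.7 and 56.0 against 21.8 and 26.0, and that of 6 fibroblast markers 353 and 521 against 216 and 291, each with 2 or 3 members called lower and 0 higher. Of the fibroblast sum, Dcn alone gave 244 and 392 against 140 and 172 FPKM. Lum (log2 fold change 0.35), Col3a1 (0.056) and Thy1 (-0.035) had overlapping groups, and 2 of the 6 fibroblast markers lay above 0. Summed levels of 8 macrophage markers were 46.3 and 41.8 against 31.3 and 30.3, with 1 called lower. The 6 osteoblast markers, of which Ibsp, Sp7, Dmp1 and Phex averaged under 1 FPKM, summed to 24.8 and 33.5 against 15.0 and 23.9, with 1 lower. The 6 markers of skeletal muscle summed to 4.89 and 4.56 against 3.92 and 13.0 FPKM, with 1 higher, while 6 of neutrophils (105 and 183 against 112 and 45.1) and 6 of cycling cells (6.86 and 7.69 against 5.56 and 8.22) had none called in edgeR. Among the neutrophil and the cycling markers, 0 passed even an unadjusted p of 0.05. Several defining markers averaged under 1 FPKM, among them Adgre1 and Mrc1 of macrophages, Alas2 and Slc4a1 of erythroid cells, Elane and Mpo of neutrophils, and Ckm, Myh3 and Tnnt3 of muscle. Whether these differences in makeup bear on the ribosomal proteins was not tested. In such bulk samples fewer cells of a type and less RNA per cell cannot be told apart.

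Ribosomal proteins made up a large part of the transcriptome, slightly larger in the knockout libraries. Short transcripts in general were also higher there, as given below with transcript length. The 87 members held 12.9% and 12.8% of all summed FPKM in wild type, against 13.8% and 13.5% in knockout. Both knockout libraries lay above both wild type libraries, by 0.832 percentage points on average. As a share of counts, which weighs long transcripts more, the members held 3.89% and 3.76% in wild type and 4.21% and 4.10% in knockout, a difference of 0.327 percentage points. Within groups the standard deviation was 0.141 points for the FPKM share and 0.0860 points for the count share.

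Among all listed genes the core members ranked near the top, with 46 of 78 in the 100 genes of highest mean FPKM and 75 in the highest 250. Their mean FPKM ran from 69.7 to 1655, with a median of 657, and 70 of 78 lay within 2-fold of that median. The 3 highest of the large subunit were Rplp1, Rpl41 and Rplp0. Rplp1 (gene 56040), an acidic protein of the stalk that recruits elongation factors, measured 1648 and 1636 FPKM in wild type and 1639 and 1699 in knockout. Rpl41, which encodes one of the smallest known proteins, measured 1420 and 1347 against 1541 and 1540 FPKM, and its groups did not overlap. Rplp0, the base of the same stalk, measured 1259 and 1196 against 1200 and 1159 FPKM. These 3 stood above every other large subunit gene by mean level, as the plot of FPKM by gene shows.

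**Figure D1:**
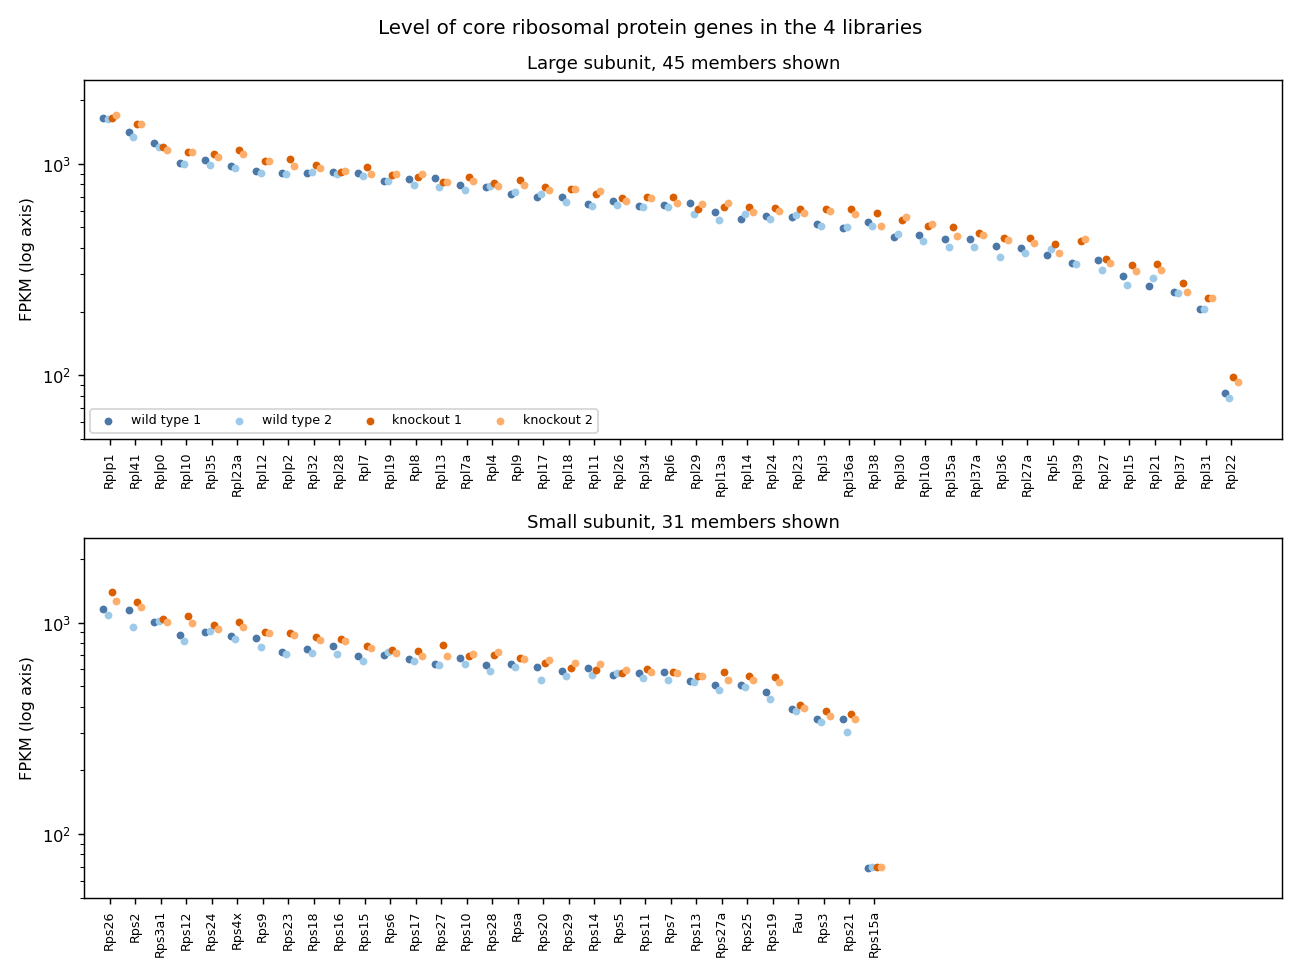
FPKM on a log axis for 45 large and 31 small subunit genes, ordered by mean level, with 1 point per library (2 wild type in blue, 2 knockout in orange). Most genes lie within 2-fold of the median of 657 FPKM, while Rpl22 and Rps15a, the longest listed entries of their subunits, lie far below the rest.

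The lowest of the large subunit were Rpl22, Rpl31 and Rpl37, at 82.0 and 78, 206 and 205, and 248 and 245 FPKM in wild type. The level of Rpl31 depends on how reads were divided, as 37.2% of its pair's counts went to the near-identical Rpl31-ps12. Rpl22 is a surface protein with a close paralog, Rpl22l1, and is not needed for general translation. Its listed length of 2203 bases, for a coding sequence of 387 bases, is the longest of the large subunit. By counts Rpl22 was not the lowest, with 5344 to 6994 per library against 3790 to 5134 for Rpl39. In the small subunit Rps26 (1157 and 1083 FPKM in wild type, 1387 and 1261 in knockout), Rps2 (1146 and 955 against 1244 and 1179) and Rps3a1 (1002 and 1021 against 1036 and 1009) were the highest. Rps26 lies at the exit for messenger RNA, and Rps2 near its entry. Rps15a, Rps21 and Rps3 were the lowest, with 69.2 and 69.7, 351 and 305, and 351 and 340 FPKM in wild type. The level of Rps15a depends on its listed length of 5158 bases, for a coding sequence of 393 bases. Its counts, from 11290 to 11786 per library, lay close to the small subunit median of 12110 mean counts per gene, so per count it was not a low member. Nor was Rps3, with 19801 to 23113 counts per library. Its listed length is 1879 bases for a coding sequence of 732 bases.

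Between knockout and wild type, 1 member passed the test and rose. Rpl39 (gene 67248, chromosome X), a very short protein lining the exit tunnel of the large subunit, measured 340 and 335 FPKM in wild type and 433 and 439 in knockout. Both knockout libraries lay well above both wild type libraries, and each pair of replicates was close. This was a 1.26-fold rise, or 0.33 on the log2 scale of knockout over wild type (SE 0.068, adjusted p = 0.0333 by the quasi-likelihood test of edgeR). With any 1 of the 4 libraries left out its log2 fold change stayed at 0.33 to 0.35, but the edgeR adjusted p lay between 0.0826 and 0.205. These extremes came from leaving out knockout replicate 1 and wild type replicate 2, and the other values were 0.132 when wild type replicate 1 was dropped and 0.0868 when knockout replicate 2 was.

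Of the 87 members, 84 passed the filter on low counts and were tested, and those left out were the paralogs Rpl32l, Rpl39l and Rpl3l. Of the 84, 1 was called higher, where 3.62% of all tested genes were, and 0 were called lower, where 5.63% were. DESeq2 also called 0 members lower, and 0 members were lower at an unadjusted edgeR p below 0.05. At that unadjusted threshold 13 members were higher, which is 15.5% of those tested and near the 13.8% of all genes that were higher at it (29.2% in either direction). Log2 fold changes were above 0 in 73 of 84 members, against 50.6% of all genes. In counts scaled to library size by TMM, both knockout libraries lay above both wild type libraries in 56 members, or 66.7%, against 30.9% of all genes and 53.8% of the 498 tested genes of up to 800 bases. Of those 498 short genes, 375 had a log2 fold change above 0. In 3 members, Rplp0, Rpl28 and Rps15a, both knockout libraries lay below on that scale, against 30.7% of all genes, and in 25 the groups overlapped. In FPKM, 64 of the 84 tested members, or 76.2%, were separated upward and 0 downward, against 34.7% and 26.5% of all genes. Rpl28 measured 916 and 895 FPKM in wild type and 918 and 924 in knockout, and the FPKM of Rplp0 and Rps15a overlapped between groups, so these 3 were lower by scaled counts only. The differences were small, and 83 of 84 members did not pass the test: the median log2 fold change of the 78 core members was 0.092, a 1.07-fold difference, where the median of all tested genes was 0.0044 and the median standard error of a core member was 0.073.

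The authors' deposited table of a DESeq2 comparison gave adjusted p-values below 0.05 to 2 of the 87 members, Rpl39 and Rps23, both higher in knockout, where 3.33% of the 17529 genes in that table were called higher. DESeq2 on the counts here also called these 2, with 5.09% of the 12704 genes that had an adjusted p called higher.

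**Figure D2:**
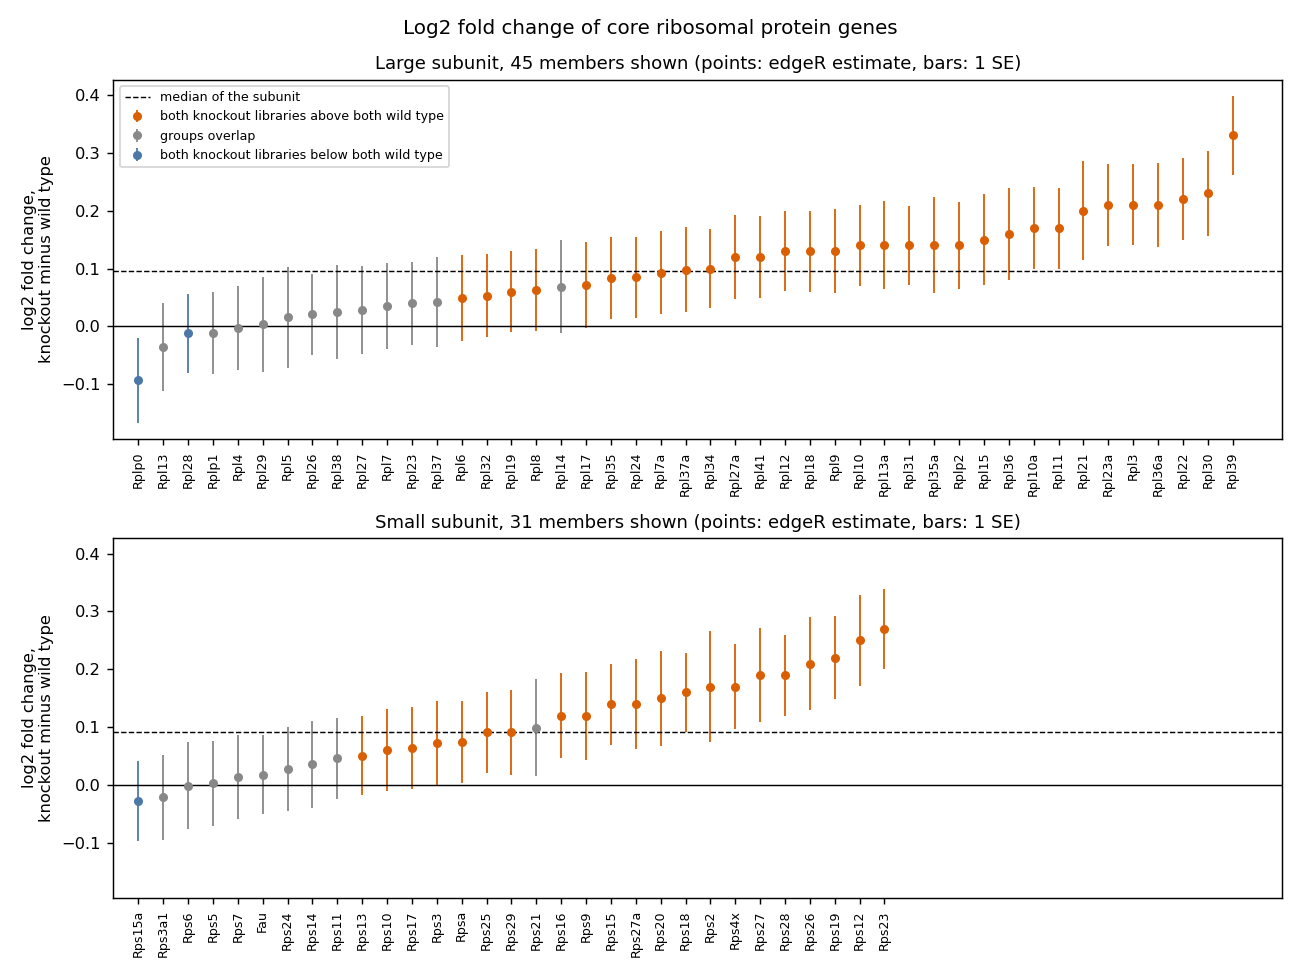
Log2 fold change (knockout minus wild type) of 76 of the 78 core members from edgeR, with bars of 1 standard error, for the large subunit above and the small subunit below. Orange points mark genes whose knockout libraries both lie above both wild type libraries in scaled counts (52), blue points the reverse (3) and grey points overlapping groups (21), and the dashed lines are the medians of 0.096 and 0.091 over all 46 and 32 members.

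In the large subunit 1 of 46 members was called, 40 lay above 0 and 6 below. After Rpl39 the largest differences were those of Rpl30, Rpl22 and Rpl36a. Rpl30 measured 453 and 465 FPKM in wild type and 540 and 561 in knockout (log2 fold change 0.23, SE 0.073, edgeR adjusted p = 0.102). Rpl22 measured 82.0 and 78 against 98.3 and 93.3 FPKM (0.22, SE 0.071, edgeR adjusted p = 0.0997). Rpl36a, which contacts the end of transfer RNA in the exit site, measured 499 and 504 against 614 and 577 FPKM (0.21, SE 0.073, edgeR adjusted p = 0.120). In these 3 genes the groups did not overlap, and none passed the threshold.

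At the other end lay Rplp0 of the stalk, with the lowest log2 fold change of all core members, -0.093 (SE 0.073, edgeR adjusted p = 0.435). Its scaled counts in knockout lay below both wild type values. Rpl13 measured 861 and 778 FPKM in wild type and 819 and 819 in knockout, with overlapping groups and a log2 fold change of -0.036. Rplp1, at the levels given above, had -0.012. The third stalk protein, Rplp2, went the other way, with 902 and 898 FPKM against 1053 and 977 and a log2 fold change of 0.14. The stalk thus held the lowest value of the large subunit beside a member above its median.

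In the small subunit 0 of 32 members were called by edgeR, while 5 were higher at an unadjusted p below 0.05 and DESeq2 called Rps23. Rps23 (gene 66475), which helps form the decoding site, measured 722 and 707 FPKM in wild type and 894 and 875 in knockout. The groups were well apart, by 0.27 on the log2 scale (SE 0.069, edgeR adjusted p = 0.0588, DESeq2 adjusted p = 0.0149). Rps12 measured 874 and 815 against 1073 and 990 FPKM (0.25, SE 0.078, edgeR adjusted p = 0.0919). Rps19, the gene most often mutated in Diamond-Blackfan anaemia, measured 467 and 436 against 551 and 525 FPKM (0.22, SE 0.072, edgeR adjusted p = 0.110). Rps26, another gene of that disease, stood at 0.21 on the same scale (SE 0.080, edgeR adjusted p = 0.148). All of these had groups that did not overlap.

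Rps15a, Rps3a1 and Rps6, among the small subunit genes of lowest fold change, had nearly equal levels in both groups. Rps15a measured 69.2 and 69.7 against 70.1 and 69.6 FPKM (-0.027), and Rps3a1 had -0.021. Rps6, the substrate of the S6 kinases, measured 699 and 727 against 741 and 720 FPKM, with a log2 fold change of -0.0012 (SE 0.075). In Rps3a1 and Rps6 the groups overlapped, and no difference was detectable with 2 libraries per group.

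Large and small subunit had nearly the same median log2 fold change. The median log2 fold change was 0.096 over 46 large and 0.091 over 32 small subunit members, a difference of 0.0044. As the replicate spread, the large minus small subunit median of log2 scaled counts had a standard deviation of 0.0173 between libraries of a group. This is a spread in level between single libraries, and the difference of 0.0044 was smaller than it. The middle 50% of members ran from 0.036 to 0.14 in the large and from 0.034 to 0.16 in the small subunit. Groups did not overlap, with knockout higher, in 31 of 46 large and 21 of 32 small members, or 67.4% and 65.6%. The summed FPKM of the large subunit was 1.42 and 1.45 times that of the small subunit in wild type and 1.40 and 1.41 times in knockout. Both knockout ratios lay slightly below both wild type ratios. On the log2 scale this ratio changed by -0.024, with wild type libraries at 0.50 and 0.53 and knockout libraries at 0.49 and 0.50. The mean log2 FPKM of the large subunit minus that of the small was -0.074 and -0.051 in wild type and -0.063 and -0.066 in knockout, so the groups overlapped on that measure. The higher sum of the large subunit came with its larger number of genes, as the median gene measured 637 and 604 FPKM in the large against 635 and 622 in the small subunit of wild type. In knockout these medians were 657 and 654 in the large against 696 and 696 in the small subunit. The large over small ratio of medians was 1 and 0.971 in wild type and 0.945 and 0.939 in knockout, without overlap. No test of these ratios was made.

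The 2 subunits also moved together from library to library. Relative to each gene's mean over the 4 libraries, in log2 CPM (counts scaled to library size), the median large subunit gene stood at -0.042 and -0.055 in wild type and at 0.067 and 0.024 in knockout. The median small subunit gene stood at -0.034 and -0.065 in wild type and at 0.066 and 0.032 in knockout. Knockout replicate 1 was the highest library for both subunits. Between the knockout replicates the core median differed by -0.039 (replicate 2 minus 1), and between the wild type replicates by -0.0093. Each knockout library exceeded each wild type library in the core median, by 0.060 to 0.12, with 61 to 69 of 78 genes higher. The smallest of these differences between groups, knockout replicate 2 against wild type replicate 1, was larger than the difference between the knockout replicates.

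**Figure D3:**
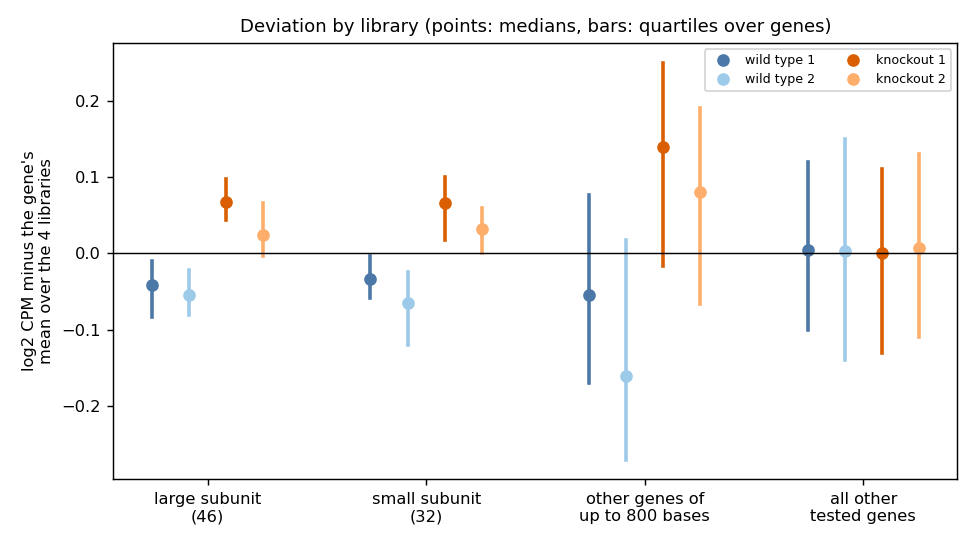
Deviation of log2 CPM from each gene's mean over the 4 libraries, with medians as points and quartiles over genes as bars, for the 46 large and 32 small subunit members, 434 other genes of up to 800 bases and 13635 other tested genes (genes with a count of 0 in any library left out). Both subunits stand below 0 in wild type and above 0 in knockout, and the other short genes do so by more. The 13635 other tested genes, which include the short ones, centre on 0.

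Transcript length moved with these differences. Ribosomal protein transcripts are short, with a median listed length of 706 bases over the core members against 2882 over all tested genes. In these libraries short transcripts in general were higher in knockout: the 444 tested genes of up to 800 bases that are no members had a median log2 fold change of 0.22, with 325 above 0, 39 called higher and 17 called lower. The 50 core members of up to 800 bases had a median of 0.11, and the 28 longer ones 0.066. When each core member was set against the median of other genes in its own length bin, 65 of 78 lay below it. The median difference was -0.091 for the large and -0.10 for the small subunit. Level did not order the genes in this way. Other genes of up to 800 bases had a median of 0.23 where the mean level was at least 100 FPKM (61 genes) and 0.22 where it was lower, and other genes over 800 bases with at least 100 FPKM had 0.0096 (512 genes). Beside other short transcripts, the ribosomal proteins thus had lower log2 fold changes, not higher ones. The part of RNA quality, library preparation or length in these differences was not tested.

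**Figure D4:**
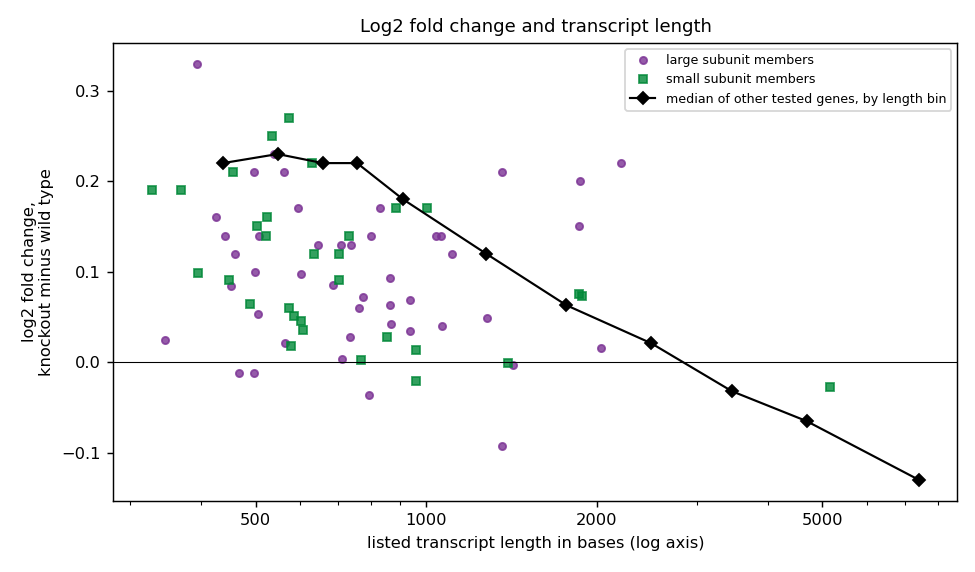
Log2 fold change (knockout minus wild type) against listed transcript length on a log axis, for 45 large (circles) and 31 small (squares) subunit members, with diamonds at the median of the other tested genes in 11 length bins of at least 73 genes. The medians of other genes fall from 0.22 in the shortest bin to -0.13 in the longest, and most members of up to 800 bases lie below that line.

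Across the 78 core members log2 fold change and log2 length had a Pearson r of -0.27 and a Spearman rho of -0.28, and over all 13773 genes -0.13 and -0.24. Genes share libraries in these values and are not independent replicates. With mean level the core members' log2 fold changes had r = -0.08 and rho = -0.09.

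Members on chromosome X were somewhat higher than the rest. The 4 core members there, Rpl10, Rpl36a, Rpl39 and Rps4x, had log2 fold changes of 0.14, 0.21, 0.33 and 0.17, and in all 4 both knockout libraries lay above both wild type libraries, as they did in 46.8% of all tested genes of chromosome X and 30.9% of all genes. Their median was 0.19, against 0.088 for the 74 core members on other chromosomes. The 459 tested genes of chromosome X as a whole had a median of 0.12, with 35 called higher and 5 lower. The Y-linked genes Ddx3y and Uty had at most 5.26 counts in any library. Kdm6a itself is X-linked. No test of the difference between chromosomes was made for these members.

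The paralogs and other matches formed a mixed set. Rps27l, an alternative form of Rps27 known as a p53 target, measured 142 and 131 FPKM in wild type and 170 and 160 in knockout (log2 fold change 0.24, SE 0.074, edgeR adjusted p = 0.0944). Rpl22l1 measured 71.0 and 66.2 against 79.7 and 83.5 FPKM (0.22, SE 0.080, edgeR adjusted p = 0.136). Rpl36al measured 302 and 308 against 346 and 346 FPKM (0.15), and Rpl7l1, a nucleolar relative of Rpl7, 82.0 and 80 against 87.9 and 83.5 FPKM (0.045). In these 4 the groups did not overlap, and none passed the threshold. Rps19bp1, which is no ribosomal protein but binds one, measured 37.5 and 35.6 against 38.0 and 35.4 FPKM. Rpl39l, known from the testis, had 8, 6, 3 and 2 counts in wild type 1, wild type 2, knockout 1 and knockout 2. Rpl3l, known from muscle, had 3, 4, 3 and 3 counts, and Rpl32l 2.25 at most, so that germ cell and muscle forms were close to the limit of detection.

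The more divergent paralogs kept a steady share of their pair. Rpl36al took 39.1% and 39.3% of the counts of the pair with Rpl36a in wild type and 37.4% and 38.9% in knockout. Rps27l took 22.3% and 21.1% against 21.8% and 22.8% of its pair with Rps27, Rpl7l1 20.6% and 20.7% against 20.7% and 20.9% of its pair with Rpl7, and Rpl22l1 15.0% and 14.7% against 14.2% and 15.4% of its pair with Rpl22. In each of these 4 pairs the groups overlapped or differed by less than 2 percentage points. Rpl7 itself measured 901 and 873 FPKM against 963 and 900 (log2 fold change 0.035), and Rps27 635 and 627 against 780 and 695 (0.19).

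**Figure D5:**
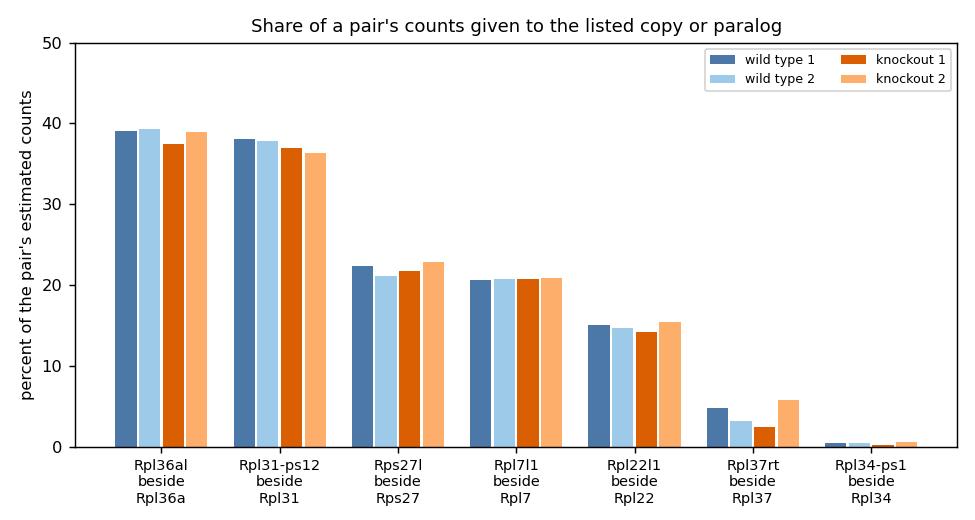
Percent of a pair's estimated counts given to the listed copy or paralog in each library (2 wild type in blue, 2 knockout in orange), for the 7 pairs in which it took at least 0.3%. Shares stay level across libraries for the paralogs on the left, while that of Rpl37rt varies from 2.40% to 5.78%.

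Among near-identical copies, the share of Rpl37rt was the least steady. Rpl37rt, whose shown stretch differs from Rpl37 in its last base alone, was given 329 and 207 counts in wild type and 183 and 412 in knockout, or 4.74%, 3.12%, 2.40% and 5.78% of its pair. The lowest and the highest value both fell in knockout, and its log2 fold change of 0.081 had a standard error of 0.38. Rpl37 had overlapping groups (248 and 245 against 273 and 247 FPKM) and a log2 fold change of 0.042, and 0.044 when the counts of both were summed. Rpl31-ps12, with 4 differences from Rpl31 over the aligned coding bases, took 38.1% and 37.8% of the pair in wild type and 37.0% and 36.3% in knockout. Rpl31 measured 206 and 205 against 231 and 233 FPKM with a log2 fold change of 0.14, and summing the pair gave 0.11. For Rpl36a, summing with its paralog moved the value from 0.21 to 0.19. Rpl34-ps1, with 2 differences from Rpl34, took 0.435%, 0.439%, 0.263% and 0.625% of its pair in the same order of libraries.

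Most copies of ribosomal protein genes are not among the listed genes at all. By GENCODE M21, 75 of 78 core members have at least 1 other gene whose transcript matches at least 80% of their coding sequence at 95% identity or more. In all there were 570 such genes, 546 of them pseudogenes, with a median of 5.5 per core member and 57 for Rpl21. In 69 of the 75, none of these copies is listed in the libraries, so that reads arising from them could only be given to the member, to another listed gene or to none. The deposited counts were whole numbers, within 0.005, in all 4 libraries for 70 of 87 members, and were estimated shares of reads for the other 17. The 65 core members with whole counts had a median log2 fold change of 0.093, and the 13 with estimated shares 0.091. Whole counts do not mark members without copies, as Rpl21, with 57 copies, had whole counts. Of the 13 with estimated shares, 5 had a near-identical listed entry. These medians therefore do not measure the effect of copies. The 17 core members with 10 or more near-identical copies had a median of 0.14, and 14 (82.4%) were separated upward in scaled counts. The 61 with fewer copies had 0.084, with 38 (62.3%) separated upward. Of all tested genes 30.9% were so separated, and of those of up to 800 bases 53.8%. No test of the difference between these sets was made. Rps23 and Rps12, with 11 and 22 copies, belong to the first set, and Rpl39, with 9, to the second. With the listed entries named for the same protein summed with their member, edgeR again called Rpl39 alone among 79 members, and the subunit medians were 0.096 and 0.092. The listed entries BC004004 and Wdr89, near-identical to Rpl21 and Rplp2 by the same rule, were not among those summed. Nor were the unlisted copies, so the summed counts do not measure the effect of copies as a whole.

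The start of the transcript was looked at because ribosomal protein messages are known for a pyrimidine tract there. Windows of RefSeq (GRCm38.p6), from 30 bases before to 20 after an annotated start, are shown for the called member Rpl39 and for Rps12 and Rps6, which had long tracts and unlike fold changes. Capitals mark the longest run of C and T in each window.
Rpl39, chrX:37085203-37085252, minus strand: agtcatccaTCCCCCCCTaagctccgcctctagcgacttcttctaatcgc
Rps12, chr10:23787190-23787239, minus strand: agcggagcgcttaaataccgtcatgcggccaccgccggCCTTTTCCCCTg
Rps6, chr4:86857348-86857397, minus strand: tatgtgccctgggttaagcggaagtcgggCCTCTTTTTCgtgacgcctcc
The run measured 9, 11 and 10 bases, and lay at the annotated start in Rps6, after it in Rps12 and before it in Rpl39. Rps12 had a log2 fold change of 0.25 and Rps6 of -0.0012. Since these genes were picked for that contrast, they cannot show whether run length and fold change are related, which was not tested. Promoter windows were available for 58 of 78 core members. On either strand the letters CTCTTTC were found in the windows of 32.8% of these and of 9.28% of all genes with a window, CTTTCC, which can overlap it, in 50% and 29.3%, CCGGAAG in 41.4% and 9.93%, and AAGATGG in 17.2% and 7.28%. A match of letters is a description and no evidence of binding.

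Other genes of translation have longer transcripts than the ribosomal proteins, and no test of a difference between the lists was made. The median listed length was 2174 bases for initiation factors, 2530 for elongation and release factors and 1195 for other transcripts known for an oligopyrimidine tract, and genes of 2000 to 3000 bases that are no members had a median log2 fold change of 0.021. Of 36 initiation factors, 0 were called in either direction by edgeR (1 higher and 3 lower at an unadjusted p below 0.05), with a median log2 fold change of 0.025. The smallest p-value was that of Eif2s2, a subunit of the factor that brings the initiator transfer RNA, with 129 and 144 FPKM in wild type and 115 and 108 in knockout (-0.33, SE 0.091, edgeR adjusted p = 0.0722, DESeq2 adjusted p = 0.0233). Of 10 elongation and release factors 0 were called, and 0 passed an unadjusted p of 0.05, with a median of 0.064. The 8 other transcripts known for an oligopyrimidine tract had a median of 0.039, with 0 called and 1 higher at an unadjusted p below 0.05.

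Genes of ribosome assembly and its regulators, also of longer transcripts, had medians below 0, apart from those of RNA polymerase I. Of 68 genes of ribosome biogenesis (median length 2640 bases) edgeR called 1 higher and 0 lower, with 4 lower at an unadjusted p below 0.05, and DESeq2 called 1 higher and 1 lower. Their median log2 fold change was -0.031, with 40 below 0. The gene that edgeR called was Nop10, a small protein of the particles that make pseudouridine in ribosomal RNA, with 77.1 and 74.6 FPKM against 113 and 96.3 (log2 fold change 0.43, SE 0.094, edgeR adjusted p = 0.0401). Its call was lost without wild type replicate 1 (adjusted p = 0.173), wild type replicate 2 (0.262) or knockout replicate 1 (0.124). Nop14 measured 50.7 and 58.6 against 44.6 and 41.8 FPKM (-0.38, edgeR adjusted p = 0.0658, DESeq2 adjusted p = 0.0197), the lower call of DESeq2. Of the 11 genes of RNA polymerase I and its factors that were matched, 0 were called in edgeR, 1 was higher and 2 lower at an unadjusted p below 0.05, and the median was 0.047. Among 17 tested regulators of mTORC1 and Myc, with a median length of 3334 bases, edgeR called 0 higher (0 also at an unadjusted p below 0.05) and 1 lower, DESeq2 called 0 higher and 2 lower, and the median was -0.10. In 12, or 70.6%, both knockout libraries lay below both wild type libraries in scaled counts, against 30.7% of all genes. In FPKM this held for 8, against 26.5% of all genes. Other genes of 3000 to 4000 bases had a median of -0.032. Eif4ebp1, the translational repressor that mTORC1 inactivates, measured 127 and 127 FPKM in wild type and 97.1 and 99.3 in knockout (-0.41, SE 0.069, edgeR adjusted p = 0.0205). Without wild type replicate 1, wild type replicate 2 or knockout replicate 1 its adjusted p was 0.115, 0.198 and 0.0636. Myc, a transcription factor that drives ribosome production, measured 140 and 138 against 121 and 126 FPKM (-0.21, edgeR adjusted p = 0.116). The list thus mixes repressors and drivers, and its median gives no direction of pathway activity.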

How the data were processed

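RNA-seq values of 2 wild type and 2 knockout libraries were used. Bowtie2 2.2.5 and the build mm9 are named in the submitters' processing notes. The counting tool, the annotation and any strand setting were not given in the sources used here. Per the file headers, the authors deposited 2 values per gene and library, an expected count and an FPKM, besides a DESeq2 table of log2 fold changes with group means (signal on the scale of normalized counts), each p-value and its adjusted form. Genes not listed in a library were taken as 0 there.

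Rounded expected counts went into edgeR 4.0.16 under R 4.3.3 (filterByExpr, TMM, quasi-likelihood F test, group only, 13773 genes), with Benjamini-Hochberg adjustment over all of them and calls at 0.05. A standard error is the size of the fold change in log2 divided by the root of F. DESeq2 1.42.0 and limma 3.58.1 on log2(FPKM + 1) were alternatives. In simulated counts of this comparison over 13773 genes, edgeR recovered 81% of genes changed by 1 and 29% of those changed by 0.5 on the log2 scale, with 2 false calls. All genes were simulated with 1 common spread between libraries (biological coefficient of variation 10.3%), and smaller changes were not simulated. The simulation thus does not give the power for the members, whose differences were smaller and whose median standard error was 0.073. A member that was not called may still differ. Copies were found with blastn 2.17.0 on GENCODE M21 transcripts, used for sequences only, and start windows are from RefSeq (GRCm38.p6).

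Named members were those called, the 3 highest and 3 lowest by mean FPKM and the 4 largest and 4 smallest log2 fold changes in each subunit, all paralogs, core members whose listed copy took at least 5% of the pair, and up to 3 genes per pathway list by p. Rpl28, Rplp2, Rpl10, Rps4x, Rpl34 and Rpl21 were named after their values were seen. A few genes that this rule takes are not reported here. Members and lists were chosen with earlier results of these data known.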

Additional observations from a re-analysis of the deposited data

How the results depend on the processing

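The medians of both subunits were above 0 in every alternative run. Without 1 of the 4 libraries the large subunit median ran from 0.0778 to 0.120, the small from 0.0727 to 0.124 and their difference from -0.0039 to 0.0251. The limma fits on FPKM, with a pseudocount of 1, of 0.1, or of 1 without a filter, gave 0.132 for the large and 0.127 for the small subunit, while the median of all genes moved to 0.0492, 0.0555 and 0.00718. DESeq2, upper-quartile and RLE scaling, the replicate block, summed copies, paralogs put into their subunit, and members left out of the scaling moved them by less than the replicate spread, and the shares of counts and of FPKM likewise in every alternative. The number of members called was 1 in edgeR, 2 with DESeq2, 0 with no filter on low counts (17 at an unadjusted p below 0.05), 0 with limma over all listed genes (14), and 0 without any 1 library (4 to 12), where DESeq2, added after seeing the data, also called 0 (1 to 4). The replicate block called 2 members, Rpl39 and Rps23, and 2316 genes in place of 1274. Over all genes, 720 were called with no filter, 0 with limma over all listed genes (4107 at an unadjusted p below 0.05), and 0 in edgeR without wild type replicate 1 (3442) or without wild type replicate 2 (2587), where DESeq2 called 567 and 422. The labels give no pairing beyond the numbers 1 and 2, and deviations of same-numbered libraries correlated at 0.107 over 13773 genes. Kdm6a and Kdm6b had log2 fold changes of -0.734 and -1.21 with limma over all listed genes (adjusted p = 0.0773 and 0.0646), and of -0.929 to -0.799 and -1.43 to -1.27 without 1 library. Of 28 named members 9 changed sign in some alternative, none of them called there, and the cause was not tested. With limma these were Rpl13 (0.000498, or 0.000501 with the pseudocount of 0.1), Rplp1 (0.0233), Rps15a (0.00837, 0.00848), Rps19bp1 (0.00440, 0.00449), Rps3a1 (0.0154) and Rps6 (0.0352). Rps6 was also above 0 with upper-quartile scaling (0.00943) and with no filter (0.00746). Without 1 library the ranges were -0.0851 to 0.0211 for Rpl13, -0.0279 to 0.120 for Rpl37, -0.616 to 0.554 for Rpl37rt, -0.0111 to 0.0906 for Rpl7, -0.0300 to 0.0166 for Rplp1, -0.0492 to 0.00116 for Rps15a, -0.0795 to 0.0280 for Rps19bp1, -0.0507 to 0.0168 for Rps3a1 and -0.0453 to 0.0511 for Rps6. With 2 libraries per group, differences under the replicate spread could not be resolved at this depth.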
